A study of Mus musculus with 18 samples.

Results

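The DNA methyltransferases and their partner UHRF1 were followed over 18 cultures of murine cells collected on day 3. The members were the 5 genes DNMT1, DNMT3A, DNMT3B, DNMT3L and UHRF1, taken at every probe that the array table assigns to them, 10 probes of 45281. Of these 10 probes, 7 were kept after dim probes had been removed (22987 probes kept in all), and 4 of the 5 genes could be tested among 16446 genes. Murine embryonic stem (ES) cells had been grown on a monolayer of PA6 cells, a mouse stromal line with neural inducing activity, and PA6 cells had been grown alone. Both the ES/PA6 co-cultures and the PA6 mono-cultures were kept in serum-free medium without growth factors (-GFs), with recombinant FGF2 at 20 ng/ml or with recombinant BMP4 at 10 ng/ml, which makes 6 groups of 3 arrays. RNA of a co-culture holds ES-derived and stromal transcripts together. The labels do not give the genotype of the ES cells. In the methods of the study they are knock-in cells with EGFP under the tau promoter. All levels below are normalized log2 intensities of 1 probe, so a level is compared between groups and never between probes.

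Methylation of cytosine in CG dinucleotides is laid down by DNMT3A and DNMT3B, the de novo enzymes. DNMT3L has no catalytic activity of its own and stimulates them. When DNA is copied, UHRF1 binds the hemimethylated CG and brings in DNMT1, the maintenance enzyme. In the mouse embryo the naive state of the inner cell mass has a sparsely methylated genome, and the passage to the primed state of the epiblast goes with a rise of the de novo enzymes.

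In the annotation of assembly GRCm38.p6 the 5 genes lie on different chromosomes: Dnmt3b at chr2:153649411-153687730, Dnmt1 at chr9:20907206-20959888, Dnmt3l at chr10:78042287-78063622, Dnmt3a at chr12:3801559-3914443 and Uhrf1 at chr17:56303337-56323486. The bases just before the first annotated start of Dnmt3b are shown because DNMT3B was the member that fell most under FGF2 in the co-cultures. The sequence is from RefSeq (GRCm38.p6, chr2:153649199-153649410, plus strand) and is 212 bases long, with its 16 CG dinucleotides, the substrate of these enzymes, in capitals.
Dnmt3b: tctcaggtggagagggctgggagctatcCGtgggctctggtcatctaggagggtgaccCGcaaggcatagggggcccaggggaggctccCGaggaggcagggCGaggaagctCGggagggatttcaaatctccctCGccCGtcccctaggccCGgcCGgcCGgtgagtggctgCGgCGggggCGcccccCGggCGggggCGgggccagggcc

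Over 32841 RefSeq windows of 250 bases before a transcript start, the median was 6 CG. The Dnmt3b window held 21, more than 83.6% of the windows. The 3 Dnmt3l windows held 5, 4 and 3 CG, and the highest counts for Dnmt1, Uhrf1 and Dnmt3a were 26, 30 and 40. E2F factors drive genes of S phase, and letters of the E2F type (TTTCGCGC, TTTGGCGC, TTTCCCGC or TTTGCCGC, either strand, words of 8 bases) were present in 1.86% of the windows. Among the 12 member windows they were found in 1 of Dnmt1 and 1 of Uhrf1, 1 match each and so with no overlap between matches. These genes are the maintenance pair, and a link between the matches and their levels was not tested. The 1.86% is over all windows, whereas the windows with a match held 26 (Dnmt1) and 30 CG (Uhrf1). Both windows with a match lie inside the annotated gene, before a later transcript start, unlike the Dnmt3b bases above. The 30 bases around each match are given in the direction of the gene, with the match in capitals: chr9:20952824-20952853 on the minus strand for Dnmt1, where it reads as the reverse complement of TTTCGCGC, and chr17:56304117-56304146 on the plus strand for Uhrf1.
Dnmt1: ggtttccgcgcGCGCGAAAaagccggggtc
Uhrf1: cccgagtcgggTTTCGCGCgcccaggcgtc

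On the co-culture arrays 19365 to 20412 probes were detected (detection p under 0.05), and on the PA6 arrays 17125 to 18391, with no overlap. Correlations between arrays of a group were 0.981 to 0.992. All 8 ES cell markers were detected on all arrays of each co-culture group, with a summed level of 80086 to 97332 linear units in -GFs, 86217 to 95088 with FGF2 and 96423 to 99741 with BMP4, against 360 to 471 in PA6 mono-cultures. POU5F1, a core pluripotency factor, stood at 13.19 ± 0.173 in -GFs, 13.09 ± 0.0754 with FGF2 and 13.28 ± 0.0837 with BMP4 in the co-cultures (SD, n = 3). Single ES cell markers ran from -1.63 to 0.93 on the log2 scale with FGF2 in co-cultures (1 of 8 called lower). With BMP4 they ran from -0.28 to 0.33 (0 of 8 called). The 10 PA6 stromal markers summed to 59373 to 73128 in -GFs co-cultures, 48156 to 58080 with FGF2, 39074 to 57687 with BMP4 and 101339 to 125703 in the mono-cultures. The 3 tested of 4 adipocyte markers summed to 7991 to 10888 in PA6 -GFs, 1363 to 1646 with FGF2 (2 of 3 called lower) and 21280 to 51233 with BMP4 (0 of 3 called). In the co-cultures they summed to 547 to 3078 in -GFs, 309 to 772 with FGF2 (1 of 3 called lower) and 4321 to 24297 with BMP4 (2 of 3 called higher). In such mixed RNA, fewer cells of a type and less RNA per cell cannot be told apart.

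DNMT3B, a de novo enzyme, was highest in co-cultures without growth factors and fell 4.6-fold with FGF2. Its probe ILMN_1252310 read 15.30, 15.48 and 15.16 in the -GFs co-cultures. With FGF2 it read 13.07, 13.14 and 13.13. With BMP4 it read 14.77, 14.73 and 14.67, so all FGF2 arrays lay below all BMP4 arrays and these below all -GFs arrays. The FGF2 change was -2.20 on the log2 scale (SE 0.124, 95% interval -2.46 to -1.94, adjusted p 1.28e-07), and within replicates 1, 2 and 3 it was -2.23, -2.34 and -2.03. A gene was called at an adjusted p under 0.1 with a log2 change over 1. DNMT3B was the 1 member called in this comparison, in which 3.34% of the genes tested were called and 1.2% were called lower. DNMT3B and DNMT3L were past the p threshold alone (2 of 4, against 9.05% of genes), and their FGF2 arrays did not overlap the -GFs arrays (19.3% of genes). With BMP4 the change was -0.59 (SE 0.124, interval -0.86 to -0.33, adjusted p 0.0365), 1.51-fold, which passed the p threshold and not the fold threshold. None of the 4 tested members was called for BMP4 (0 of 4, against 0.76% of all genes), and DNMT3B was the 1 member past the p threshold alone, as 1.7% of genes were, and the 1 whose arrays did not overlap, as in 13% of genes.

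FGF2 and BMP4 co-cultures differed from each other in DNMT3B as well, by -1.61 (3.05-fold, adjusted p 2.65e-06), in a comparison that called 2.85% of genes and separated the arrays of 18.8%. The second DNMT3B probe, ILMN_3114377, gave the same order. It read 10.08, 10.76 and 10.18 in -GFs, 7.16, 7.49 and 7.41 with FGF2 and 9.51, 9.44 and 9.50 with BMP4. The FGF2 change at this probe was -2.98 (SE 0.29, interval -3.60 to -2.37, adjusted p 1.21e-05 over all kept probes) and the BMP4 change -0.85 (adjusted p 0.244). The direction was shared by both probes, and the size of the fall was smaller at the brighter one.

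PA6 cells alone held DNMT3B at a much lower level. ILMN_1252310 read 8.97, 9.20 and 8.98 in -GFs, 8.64, 8.84 and 8.59 with FGF2 and 8.59, 8.95 and 8.85 with BMP4. The PA6 change with FGF2 was -0.36 (interval -0.62 to -0.09, adjusted p 0.0672), under the fold threshold, and with BMP4 it was -0.25 (adjusted p 0.428). The second probe was detected on 1 of 3 arrays in each PA6 group. The fall with FGF2 was larger in co-cultures than in mono-cultures by -1.84 (SE 0.176, adjusted p 8.36e-06), tested as an interaction. The second probe was too dim in PA6 for such a comparison.

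**Figure D1:**
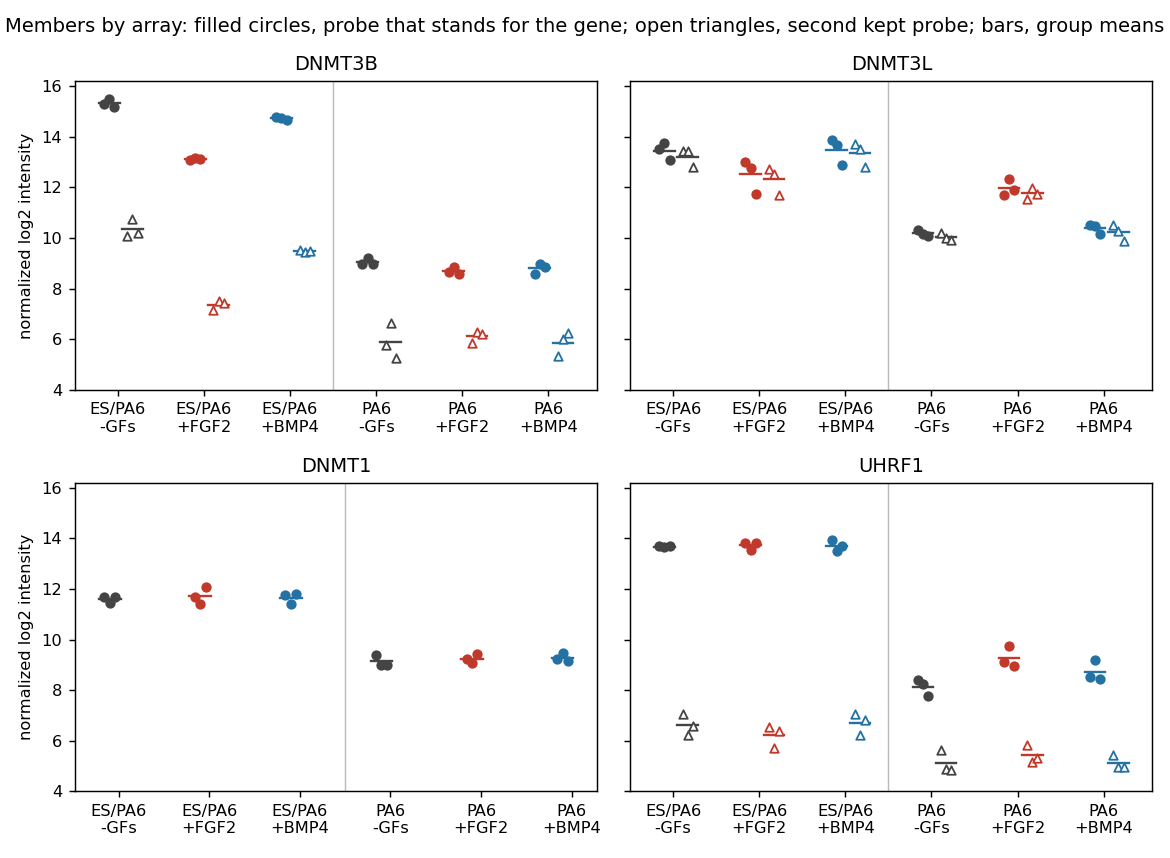
Normalized log2 intensity (y axis) of the 4 tested members on each array, by group (x axis). Filled circles are the probe that stands for the gene, open triangles a second kept probe and bars the means of 3 arrays. DNMT3B fell from 15.31 in -GFs co-cultures to 13.11 with FGF2, and DNMT3L rose in PA6 with FGF2 from 10.20 to 11.98. DNMT1 was called between culture types and was not called with either growth factor.

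DNMT3L, the cofactor of the de novo enzymes, rose with FGF2 in PA6, and in the co-cultures it was lower with FGF2 without passing the fold threshold. Its probe ILMN_1250149 read 10.33, 10.17 and 10.09 in PA6 -GFs and 11.68, 12.34 and 11.91 in PA6 with FGF2, with no overlap. BMP4 left PA6 at 10.50, 10.47 and 10.15, which overlapped the -GFs arrays. The rise with FGF2 was 1.78 (SE 0.302, interval 1.14 to 2.42, 3.44-fold, adjusted p 6.83e-04), and within replicates it was 1.35, 2.17 and 1.82. With BMP4 the change in PA6 was 0.17 (adjusted p 0.927), and FGF2 exceeded BMP4 by 1.61 (adjusted p 0.00148), the 1 member called there beside 5.82% of genes.

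In the co-cultures the same probe read 13.51, 13.75 and 13.09 in -GFs, 13.00, 12.78 and 11.74 with FGF2 and 13.86, 13.68 and 12.89 with BMP4. The FGF2 arrays lay below the -GFs arrays, replicate 3 by more than the others. The difference was -0.94 (SE 0.302, interval -1.58 to -0.30, adjusted p 0.0821), which missed the fold threshold, and within replicates it was -0.51, -0.97 and -1.36. Without -GFs replicate 3 it was -1.12, without FGF2 replicate 1 it was -1.19 and without FGF2 replicate 2 it was -1.08, and DNMT3L was then called. Without FGF2 replicate 3 it was -0.56 (adjusted p 0.288), without -GFs replicate 1 it was -0.92 (adjusted p 0.161) and without -GFs replicate 2 it was -0.79 (adjusted p 0.267), so the p threshold was then missed too. These fits took no account of the pairing of same-numbered arrays, and replicate 3 was the lowest array in each co-culture group. With the replicate number as a block in the limma fit, -0.94 had an adjusted p of 0.00359 and still missed the fold threshold. BMP4 gave 0.03 (interval -0.62 to 0.67, adjusted p 0.992). FGF2 against BMP4 gave -0.97 (adjusted p 0.0832), and -0.59 without FGF2 replicate 3 (adjusted p 0.289).

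The interaction for DNMT3L was -2.72 (SE 0.427, adjusted p 7.81e-04), and with DNMT3B and UHRF1 it made 3 of 4 members called, where 7.39% of all genes were. The BMP4 interaction called 0 of 4 (0.559% of genes). The second probe, ILMN_3112268, gave 1.72 in PA6 (adjusted p 4.13e-04), -0.89 in co-cultures (adjusted p 0.0754) and an interaction of -2.62 (adjusted p 4.94e-04). For FGF2 against BMP4 in co-cultures it gave -1.02 (adjusted p 0.0461) and was called, unlike the brighter probe. Both DNMT3L probes were detected on 18 of 18 arrays. For FGF2 the probes shared their sign within each culture type, above 0 in PA6 and below 0 in co-cultures. The gap in DNMT3L between culture types was narrower under FGF2, by the rise of 1.78 in PA6 and the difference of -0.94 in co-cultures: ES/PA6 exceeded PA6 by 3.25 in -GFs (9.53-fold, adjusted p 9.2e-08), by 3.10 with BMP4 and by 0.53 with FGF2 (adjusted p 0.134). In the annotation Aire, which encodes a regulator of self-antigen expression in the thymus, ends 1324 bases past the start of Dnmt3l. The AIRE probe gave -1.15 with FGF2 in co-cultures (adjusted p 0.044), where it was detected on 9 of 9 arrays. Over both culture types it was detected on 11 of 18 arrays, so it was mostly at background in PA6. In the mono-cultures with FGF2, where DNMT3L rose, the adipocyte markers ADIPOQ (-4.65) and CFD (-4.79) fell and PPARG gave -0.10 (adjusted p 0.935), and their part in the DNMT3L result was not tested.

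UHRF1, which reads hemimethylated CG, was level in the co-cultures and rose with FGF2 in PA6. Its probe ILMN_2517041 read 13.68, 13.66 and 13.68 in -GFs co-cultures, 13.83, 13.53 and 13.82 with FGF2 and 13.94, 13.50 and 13.71 with BMP4. The changes were 0.05 with FGF2 (interval -0.43 to 0.54, adjusted p 0.949) and 0.04 with BMP4 (interval -0.44 to 0.53, adjusted p 0.984), so a change of 1 on the log2 scale lay outside both intervals. In PA6 the probe read 8.40, 8.24 and 7.77 in -GFs, 9.11, 9.74 and 8.96 with FGF2 and 8.51, 9.19 and 8.43 with BMP4. The FGF2 arrays of PA6 all lay above the -GFs arrays, and so did those with BMP4, by a smaller distance. The FGF2 rise was 1.13 (SE 0.228, interval 0.65 to 1.62, 2.19-fold, adjusted p 0.00268), and BMP4 gave 0.57 (adjusted p 0.272).

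DNMT3L and UHRF1 were thus the 2 of 4 tested members called with FGF2 in PA6, where 5.27% of genes were called and 2.71% were called higher. With DNMT3B they made 3 of 4 past the p threshold alone (18.7% of genes) and 3 of 4 with no overlap between the arrays (33.8% of genes). BMP4 in PA6 called 0 of 4 (1.41% of genes), and the arrays of UHRF1 and DNMT3B did not overlap (21.5% of genes). The UHRF1 call was lost without PA6 -GFs replicate 3 (0.94) and without PA6 FGF2 replicate 2 (0.90), since both fell under the fold threshold. The interaction was -1.08 (SE 0.322, adjusted p 0.0443), and it too lost its call without PA6 -GFs replicate 3 (-0.89, adjusted p 0.106), without PA6 FGF2 replicate 2 (-0.84, adjusted p 0.113) and without ES/PA6 FGF2 replicate 2 (-0.98). The second UHRF1 probe, ILMN_2497581, was dim. It was detected on 2 of 3 FGF2 co-culture arrays and on none of the PA6 arrays, and it gave -0.41 with FGF2 in co-cultures (adjusted p 0.564), of opposite sign to the brighter probe, so UHRF1 rests on 1 probe.

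DNMT1, the maintenance enzyme, did not pass the test with either growth factor. Its only probe, ILMN_2720451, read 11.69, 11.46 and 11.68 in -GFs co-cultures, 11.70, 11.42 and 12.07 with FGF2 and 11.76, 11.39 and 11.82 with BMP4. In PA6 it read 9.40, 9.01 and 9.01 in -GFs, 9.23, 9.08 and 9.43 with FGF2 and 9.22, 9.46 and 9.17 with BMP4. The groups overlapped within each culture type. The FGF2 change was 0.12 in co-cultures (interval -0.26 to 0.49, adjusted p 0.827) and 0.11 in PA6 (interval -0.27 to 0.48, adjusted p 0.797), and the interaction was 0.01 (adjusted p 0.985).

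DNMT3A, the other de novo enzyme, had 3 probes (ILMN_1256464, ILMN_1224446 and ILMN_1259562), and none was detected on any of the 18 arrays. Their raw intensities ran from 67.8 to 144.1 and their detection p from 0.186 to 0.999, so only DNMT3B of the de novo pair could be measured. This says that these probes were not above background, and gives no level for the transcript.

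**Figure D2:**
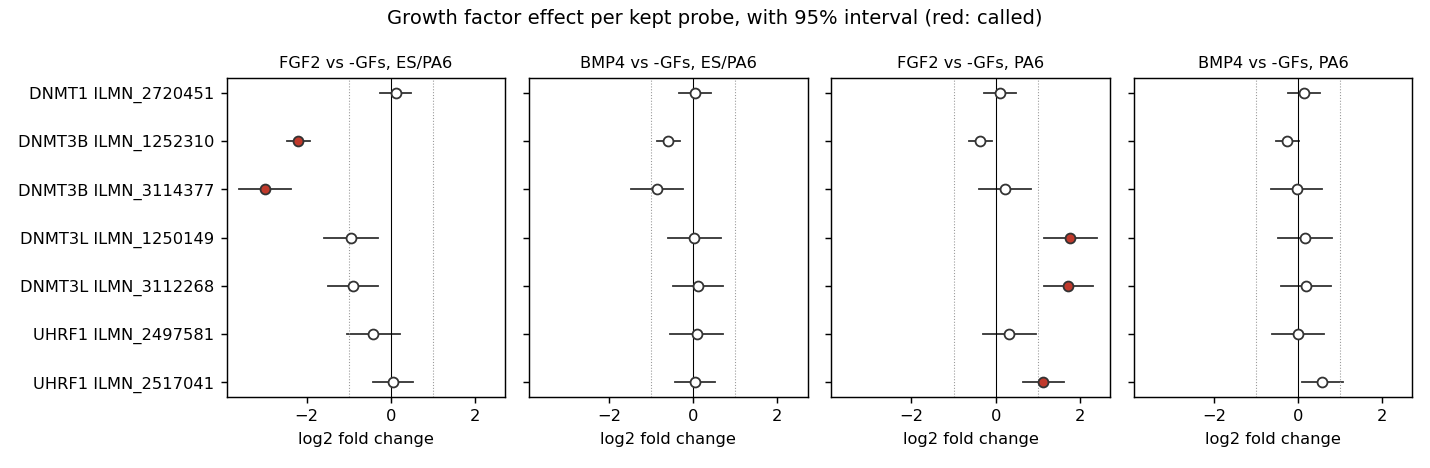
Log2 fold change against -GFs (x axis) of the 7 kept member probes, 1 row each, for FGF2 and BMP4 in co-cultures and in PA6. Points are estimates with 95% intervals, red where called, and dotted lines mark a log2 change of 1. Both DNMT3B probes lay below -1 with FGF2 in co-cultures, and both DNMT3L probes lay above 1 with FGF2 in PA6.

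All 4 tested members were higher in co-cultures than in PA6 without growth factors, a comparison in which 39% of all genes were called and 19.4% were called higher. The difference was 6.27 for DNMT3B (77-fold, adjusted p 1.3e-15), 5.54 for UHRF1 (46.4-fold, adjusted p 4.94e-12), 3.25 for DNMT3L and 2.47 for DNMT1 (5.55-fold, adjusted p 4e-09), beside a median of -0.11 over all genes. With BMP4 all 4 were called again (38.1% of genes), and with FGF2 3 of 4 were (37.2%), DNMT3L being the exception. In the order of group means DNMT3B ran from ES/PA6 -GFs through BMP4 and FGF2 to the PA6 groups, and its neighbours in that order differed at every step within the co-cultures. The 3 PA6 groups of DNMT3B did not differ from their neighbours past the p threshold. For DNMT1 and for UHRF1 the step between culture types was the only neighbouring step with an adjusted p under 0.1.

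Transcripts of the other genes of DNA replication were compared because DNMT1 and UHRF1 act at the replication fork. Of 20 listed genes 19 were tested, and 17 were higher in co-cultures than in PA6 without growth factors (median 2.92). No replication gene was called with FGF2 or BMP4 in either culture type, and the medians were 0.01 for both factors in co-cultures, and -0.08 with FGF2 and -0.10 with BMP4 in PA6. In PA6 with FGF2, the condition where UHRF1 rose, single replication genes ran from -0.80 to 0.91. PCNA, the sliding clamp of the fork, gave 0.22 with FGF2 in co-cultures and 0.14 in PA6 (adjusted p 0.871 and 0.898).

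Partners of the maintenance step and readers of methylated CG numbered 15, of which 12 were tested. FGF2 called 0 of 12 in co-cultures (median 0.15, range -0.35 to 0.43) and 0 of 12 in PA6 (median 0, range -0.92 to 0.42). UHRF2, the paralogue of UHRF1, gave 0.16 in co-cultures (adjusted p 0.64) and 0.42 in PA6 (adjusted p 0.0592, under the fold threshold). With BMP4 in PA6, MBD4, a glycosylase that acts on mismatches at CG, was the 1 called, at 1.20 (adjusted p 4.71e-04). HELLS, a chromatin remodeller needed for methylation, was under the detection filter. Regulators of methylation (13 tested of 14) had 0 called with either factor in either culture type. Among them DPPA3, which keeps UHRF1 from chromatin, gave -0.03 with FGF2 and 0.82 with BMP4 in co-cultures (adjusted p 0.979 and 0.183) and was not detected in PA6 without growth factors, with FGF2 or with BMP4. PRDM14, a repressor of the de novo enzymes in naive cells, was under the filter. Of the methyl donor cycle, 9 of 10 genes were tested and SHMT1, a serine hydroxymethyltransferase, was the 1 called in these 4 comparisons, at -1.19 with FGF2 in PA6 (adjusted p 3.57e-04).

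Of the 7 tested genes of demethylation, the FGF2 interaction called 5, where it called 7.39% of all genes. TET1 and TET2 oxidise methylcytosine, and the array names them CXXC6 and E130014J05RIK. TET2 rose with FGF2 in co-cultures, from 9.14 ± 0.553 to 10.49 ± 0.276 (log2 change 1.36, adjusted p 0.00407; SD, n = 3), and gave -0.09 in PA6. TET1 fell with FGF2 in PA6, from 8.92 ± 0.0814 to 7.84 ± 0.0895 (log2 change -1.08, adjusted p 4.69e-05), and gave 0.46 in co-cultures (adjusted p 0.0589, under the fold threshold). Their interactions were 1.45 (adjusted p 0.0185) and 1.54 (adjusted p 1.31e-04). TET3 was under the filter. GADD45G, a stress-inducible factor that has been tied to demethylation, fell by 1.15 on the log2 scale with FGF2 in co-cultures (adjusted p 0.00783). In PA6 GADD45A rose by 2.25 and APOBEC1, a cytidine deaminase, by 1.22 (adjusted p 4.71e-05 and 2.29e-05). APOBEC1 also gave 0.89 in co-cultures (adjusted p 0.00111, under the fold threshold), and its interaction was -0.33 (adjusted p 0.352). Over the 7 tested of 9 listed genes, 1 rose and 1 fell in co-cultures, where 3.34% of all genes were called. In PA6 2 rose and 1 fell, where 5.27% of all genes were called. The interaction called 5 of 7, TET1 and TET2 above 0 and 3 below 0. These 3 were GADD45A (-2.28), GADD45G (-1.59) and TDG (-1.31), with adjusted p 0.00189, 0.00703 and 0.00365. TDG, a glycosylase that excises oxidised methylcytosine, was named after its values were seen. It gave -0.52 in co-cultures (adjusted p 0.113) and 0.79 in PA6 (adjusted p 0.00656, under the fold threshold), so neither change was called. The median of the list was -0.50. With BMP4 none of the 7 was called in either culture type. Without growth factors 3 of the 7 were called higher in co-cultures than in PA6 and 1 lower. The 3 were TET1 (by 3.40), TDG (by 2.72) and GADD45A (by 1.68). For these a stromal change would show only in part in a co-culture. Their interactions thus cannot tell whether the stroma itself responded differently.

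DNMT3B is itself a transcript of the primed state, and genes of both pluripotent states changed with FGF2 in the same co-cultures. The lists of both states were chosen with earlier results of these data known, so their counts describe and do not test. With FGF2 in co-cultures 3.34% of all genes were called, and 1.2% were called lower. Of 9 tested naive pluripotency genes 8 rose with FGF2 in co-cultures (median 1.56, range 0.78 to 2.75, beside -0.01 over all genes), among them TBX3 by 2.75, TFCP2L1 by 2.38, NANOG by 1.25 and ZFP42 by 1.19. Of 6 primed epiblast genes 5 fell (median -2.54), and the 4 with the largest log2 changes were FGF5 (-4.17, detected on 2 of 3 FGF2 arrays), POU3F1 (-3.01), LEF1 (-2.57, detected on 1 of 3) and OTX2 (-2.51). With BMP4, which lowered DNMT3B 1.51-fold, 0 of 6 primed genes were called (median -0.64) and 1 of 9 naive genes was, TBX3 at 1.13 (adjusted p 0.02). In PA6 with FGF2 no gene of either list was called. The FGF2 interaction called 8 of 9 naive genes above 0 and 5 of 6 primed genes below 0, beside 7.39% of all genes. When only genes detected on all 18 arrays were tested, 2 naive genes and 0 primed genes were called with FGF2 in co-cultures. Few genes of either list pass that filter in PA6.

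**Figure D3:**
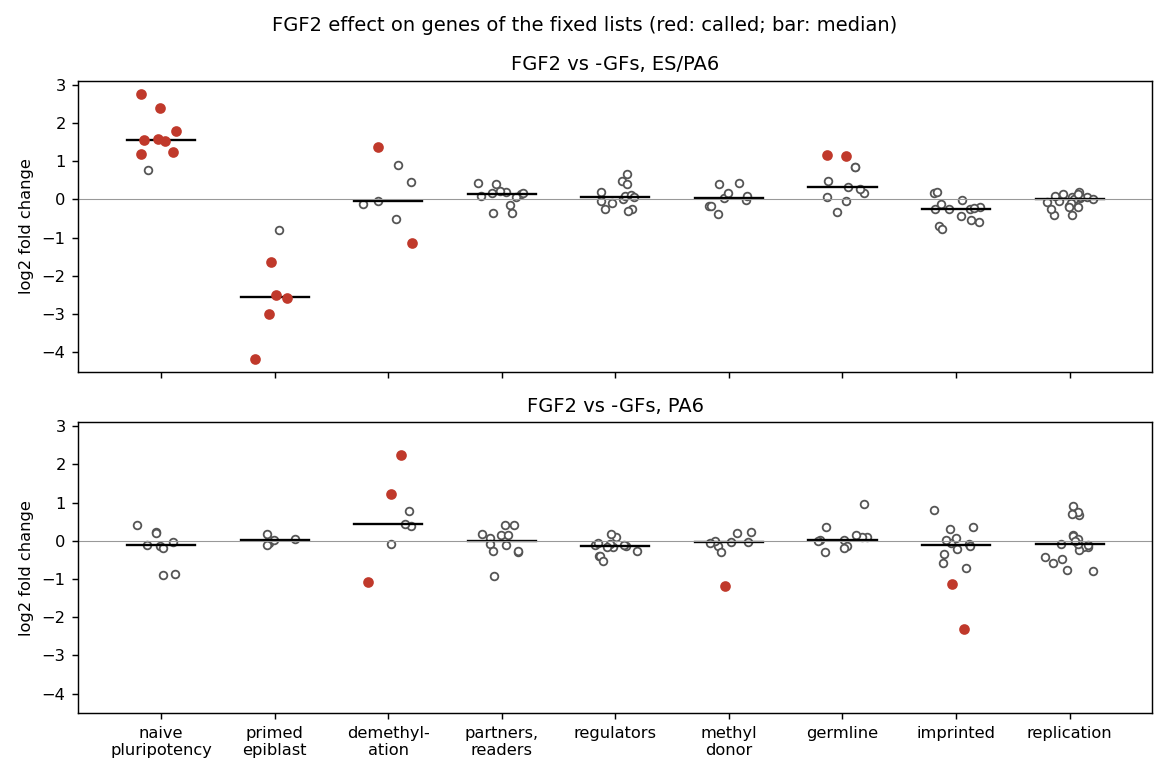
Log2 fold change of FGF2 against -GFs (y axis) for every tested gene of the 9 lists (x axis), in co-cultures above and in PA6 below. Red points were called and bars are list medians. Naive genes lay above 0 with a median of 1.56 and primed genes below 0 with a median of -2.54 in co-cultures, while the replication list had a median of 0.01.

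Genes that promoter methylation is known to silence were read as a further description. Of 19 germline genes 11 were tested. With FGF2 in co-cultures DAZL, an RNA-binding protein of germ cells, rose by 1.13 (adjusted p 0.0122) and STK31 by 1.15 (adjusted p 0.00924, detected on 1 of 3 -GFs arrays). With BMP4 the 2 called were RHOX6 and RHOX9, homeobox genes of the X chromosome, at 1.97 and 1.80 (adjusted p 1.62e-05 for each). RHOX genes have close paralogues, which a probe may read together. No other gene of the list was called with either factor in the co-cultures, and none in PA6. Of 20 imprinted genes 14 were tested and none was called in the co-cultures. In PA6 MEST was not detected with either factor, at least 2.83-fold lower with FGF2 and at least 2.97-fold lower with BMP4 (adjusted p 8.19e-04 and 0.0091). IGF2 fell by 1.12 with FGF2 (adjusted p 0.0437), and H19 fell by 2.40 with BMP4 (adjusted p 0.00972) on the log2 scale. Methylation itself was not measured.

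The profile of each member over the 9 co-culture arrays was compared with 12127 genes detected on all of them. These correlations are descriptions over arrays that share their treatments and replicates. The genes most like DNMT3B were GDAP1L1 (r = 0.98), POU3F1 (0.978), a POU factor of the primed epiblast, and AL022832 (0.977). GDAP1L1 gave -1.75 with FGF2 and -0.66 with BMP4, and AL022832 gave -0.61 and -0.10. For DNMT3L they were ADH1 (0.967), CHST7 (0.961) and IL17D (0.961). ADH1, an alcohol dehydrogenase, gave -1.95 with FGF2 (adjusted p 0.0306) and shared with DNMT3L a low value on FGF2 replicate 3. For DNMT1 they were SMC5L1 (0.963), CTSC (0.958) and FAM134B (0.956), and for UHRF1 DIS3 (0.94) and CYP2C44 (0.92), none of which changed past the threshold with either factor. Among the members DNMT1 and UHRF1 gave 0.732, DNMT3B and DNMT3L 0.715, and DNMT1 and DNMT3L -0.627 (n = 9 for each).

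**Figure D4:**
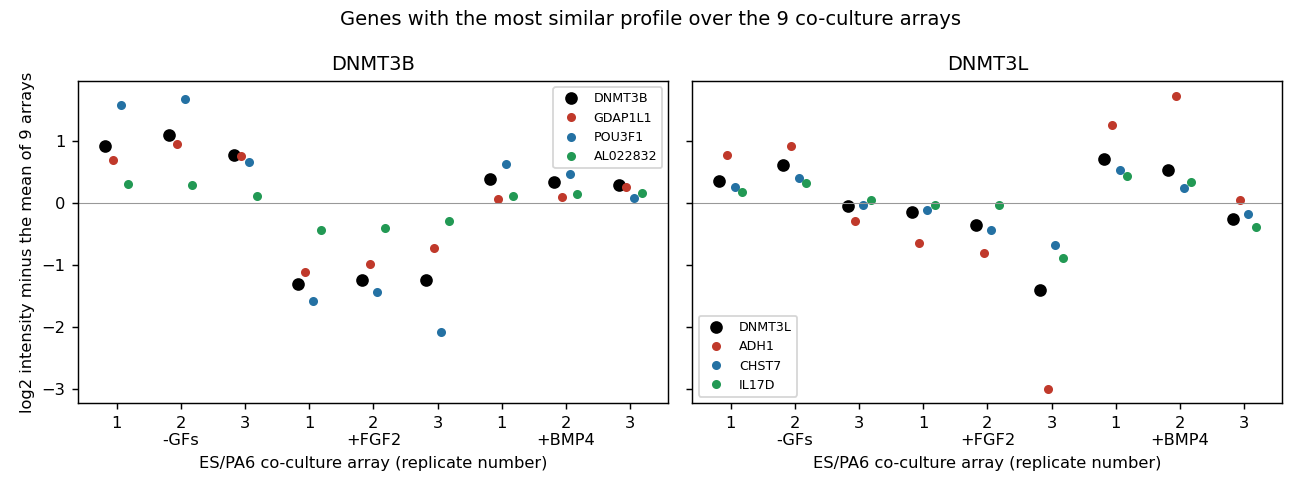
Log2 intensity minus the mean of the 9 co-culture arrays (y axis) by array, for DNMT3B and DNMT3L (black) and the 3 genes with the highest correlation to each. All 3 partners of DNMT3B lay below their mean on the 3 FGF2 arrays, and ADH1 shared with DNMT3L the lowest value on FGF2 replicate 3.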

How the data were processed

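Total RNA of 18 cultures was hybridised to Illumina MouseWG-6 v2.0 arrays in 1 colour. The authors deposited raw intensity values, 1 bead summary per probe (GenomeStudio 2011.01, from the submitters' processing notes), and a deposited detection p-value for each. A further 5 stray shifted lines at the end of the table, which put other values into 10 detection columns, were left out. Groups, replicates, doses and day are those of the labels (the methods name another BMP4 dose for slides).

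The neqc method (limma 3.58.1, R 4.3.3, offset 16, controls inferred from the detection p) corrected background, quantile normalized and took log2, whereas the study used a cubic spline. The offset understates changes of dim probes. A probe needed a detection p under 0.05 on 3 or more arrays, and the brightest probe on average stood for its gene. A single limma fit of 6 group means gave all comparisons and interactions, with Benjamini-Hochberg adjustment over 16446 genes (over 22987 probes for second probes). Where a probe was undetected on all arrays of a group, its fold is written "at least": the brighter mean was set against the dim arrays, each taken at its lowest detected signal or at the probe, whichever was higher. With 3 arrays against 3 a permutation cannot give a p under 0.1, and array number sets the precision. The fit was tested on simulated data.

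Same-numbered co-culture arrays deviated together (r 0.325 to 0.521 in 9 pairs), which pairs them, and the labels describe 1 well per condition in each biological replicate. In PA6 r was 0.0628 to 0.164. A replicate block was an alternative, as were other normalizations, filters, thresholds, probes and leaving out each array. Named genes were the members, the 3 genes most like each, 13 genes whatever their values, and up to 4 called genes with the largest change per list and comparison. AIRE was added after its values were seen, and 1 of the genes most like a member is not reported here. The members and lists were chosen with earlier results of these data known. Older array names were matched through RefSeq synonyms. Probe and protein sequences were not used here.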

Additional observations from a re-analysis of the deposited data

Results flagged for a closer look

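The log2 change with FGF2 differed between co-cultures and PA6 alone for 3 of the 4 tested members, each by an interaction contrast in the limma fit over all genes. The difference, co-culture minus PA6 on the log2 scale, was -2.72 for DNMT3L (lower in 3 of 3 co-culture replicates and higher in 3 of 3 PA6 replicates), -1.84 for DNMT3B and -1.08 for UHRF1. Without growth factors the co-cultures exceeded PA6 by 5.54 for UHRF1 and 3.25 for DNMT3L on that scale. A stromal rise inside a co-culture would thus show only in part, so these contrasts cannot tell whether the stroma itself responded differently. The UHRF1 call was lost in 5 alternatives, the 3 arrays left out that are named above and quantile normalization or a cubic spline, both without background correction (-0.86 and -0.83), so 2 to 3 members were called. With FGF2, 1 of 10 stromal markers was called lower in the co-cultures (median -0.38) and 2 of 10 in PA6 (median -0.46). Of 3 adipocyte markers, 1 was called lower in the co-cultures and 2 in PA6. The part of these markers in the differences was not tested.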

How the results depend on the processing

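Of 216 alternative counts of called members, 202 stayed within 1.5 times the value given, and no called fold change of a member reversed. With quantile normalization or with a cubic spline, both without background correction, 1 member was called with FGF2 in PA6 in place of 2, since UHRF1 stood at 0.91 and 0.87. Without a fold threshold, 2 members were called with FGF2 and 1 with BMP4 in co-cultures, and 2 for FGF2 against BMP4, where testing every kept probe by itself also gave 2. Leaving out 1 array at a time gave 1 to 2 members for FGF2 in co-cultures, for FGF2 against BMP4 in co-cultures and for FGF2 in PA6. The array left out decided DNMT3L for FGF2 against BMP4: it was called without FGF2 replicate 1 (-1.22), FGF2 replicate 2 (-1.11) or BMP4 replicate 3 (-1.26), and stood at -0.59 without FGF2 replicate 3. DNMT3B with FGF2 in co-cultures was called under all 19 alternatives (-2.27 to -2.12). The replicate block changed no call of a member: 1 member was called with FGF2 in co-cultures, and DNMT3L gave -0.94 there with an adjusted p of 0.00359. The counts of naive and primed genes were repeated under the same settings, a choice made after seeing the data. Leaving out 1 array gave 6 to 8 naive and 5 to 6 primed genes.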
